A study of Homo sapiens with 6 samples.

Results

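The 10 genes described here make the machinery that licenses replication origins, unwinds DNA and supplies the fork: the helicase subunits MCM2, MCM3, MCM4, MCM5, MCM6 and MCM7, the sliding clamp PCNA, the flap endonuclease FEN1 and the ribonucleotide reductase subunits RRM1 and RRM2. They were chosen by symbol, with no measured value in the choice, and are 10 of the 24143 genes that carried a value in the assemblies. In the authors' merged table they hold 11 of 117001 loci, MCM2 being listed at 2. HEK293 is a human embryonic kidney line transformed with adenovirus DNA, which divides continuously. Cells cultured at 37°C were taken during passaging into a tube, and the heat shock group spent 30 minutes at 45°C in a water bath, whereas the control group was not heated. The labels give the time in the bath only, while the study's text places the measurement 30 minutes after the shock. Ribosomal RNA was depleted from total RNA and each of the 3 control and 3 heat shock samples gave 1 library. All samples are of 1 cell line, and no label says that they came from separate cultures, so that p-values measure the spread between these libraries, which may be technical.

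In G1 the origin recognition complex, with CDC6 and CDT1, loads the ring of MCM2 to MCM7 onto DNA, which licenses the origin. In S phase CDC7 and cyclin-dependent kinases add CDC45 and the GINS complex to this ring and turn it into the moving helicase. PCNA encircles DNA behind the helicase and holds the polymerases, FEN1 trims the flaps of Okazaki fragments, and ribonucleotide reductase, built from the large subunit RRM1 and the radical-bearing subunit RRM2, makes the deoxynucleotides. Many of these genes are known as targets of E2F factors, which drive their genes together as cells pass from G1 into S phase, and NF-Y, which binds the CCAAT box, acts at many of the same promoters.

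Because the members are known to be driven together, the bases upstream of their starts are shown. RefSeq windows of GRCh38.p14, from 250 bases before to 50 bases after a start, were matched by symbol for 8 of the 10 genes, with 12 windows among them. Searched on both strands, the 8-base E2F-type letters TTTGGCGC, TTTGCCGC, TTTCGCGC or TTTCCCGC were found in windows of MCM2, MCM3, MCM6, MCM7 and PCNA, which is 5 of 12 windows against 3.32% of 35116 windows of all genes. CCAAT was found in 10 of 12 windows, of MCM3, MCM6, MCM7, PCNA, RRM1 and RRM2, against 34.6% of all windows. The letters GAANNTTCNNGAA, a strict form of the heat shock element, were in 0 of the 12 windows, in 0.490% of all windows and also in 0 of 8 windows of the heat shock genes named later. The 250 upstream bases of MCM6 and MCM3, of PCNA as the clamp and of RRM2 as the reductase are given 5′ to 3′ on the strand of the gene, with matches to the E2F-type letters or CCAAT, on either strand, in capitals. In MCM6 each of the 2 longer capital runs holds a pair of E2F-type matches that overlap.
MCM6, chr2:135876444-135876693, minus strand: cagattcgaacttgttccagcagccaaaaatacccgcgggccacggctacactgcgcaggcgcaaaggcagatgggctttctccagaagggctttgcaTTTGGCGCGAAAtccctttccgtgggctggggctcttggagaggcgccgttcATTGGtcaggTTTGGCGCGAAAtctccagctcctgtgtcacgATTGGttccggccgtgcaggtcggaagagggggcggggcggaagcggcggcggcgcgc
MCM3, chr6:52284743-52284992, minus strand: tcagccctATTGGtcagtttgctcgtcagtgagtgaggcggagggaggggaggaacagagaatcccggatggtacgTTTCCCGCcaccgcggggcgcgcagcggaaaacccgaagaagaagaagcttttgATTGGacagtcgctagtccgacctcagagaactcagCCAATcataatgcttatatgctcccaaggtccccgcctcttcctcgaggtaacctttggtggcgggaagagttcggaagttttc
PCNA, chr20:5126623-5126872, minus strand: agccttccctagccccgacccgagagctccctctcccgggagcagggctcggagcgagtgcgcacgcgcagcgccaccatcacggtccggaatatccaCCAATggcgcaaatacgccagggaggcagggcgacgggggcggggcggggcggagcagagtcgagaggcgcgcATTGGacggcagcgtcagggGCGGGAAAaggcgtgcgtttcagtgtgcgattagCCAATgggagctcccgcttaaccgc
RRM2, chr2:10122489-10122738, plus strand: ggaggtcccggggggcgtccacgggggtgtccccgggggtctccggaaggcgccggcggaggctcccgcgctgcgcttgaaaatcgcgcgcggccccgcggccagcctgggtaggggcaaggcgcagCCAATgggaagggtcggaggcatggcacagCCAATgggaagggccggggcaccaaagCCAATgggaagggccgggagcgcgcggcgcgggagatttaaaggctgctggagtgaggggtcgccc
A match is a description of letters and not of a bound factor.

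The libraries stood apart in ways that the labels do not give. Single-exon transcripts listed without a strand numbered 141632 in control replicate 1, 194489 in control replicate 2 and 151889 in heat shock replicate 3, against 17304 to 45600 in the other 3 libraries, so that this split crosses the groups. Read counts cannot be had from the deposited values, but the depth of a library relative to the shallowest, from coverage divided by FPKM, was 1 to 2.03. The common factor of a library, its median-of-ratios size factor over the 983 genes with more than 10 FPKM throughout, was 0.948, 0.439 and 0.967 for control replicates 1 to 3, but 2.15, 2.34 and 0.492 for heat shock replicates 1 to 3. FPKM is scaled by transcript length and library size, so the levels of different genes can be compared within a library. In bulk RNA, fewer cells of a type and less RNA per cell cannot be told apart. Of the markers of the line, VIM was listed at 85.3 to 929 FPKM, NEFL at 2.45 to 13.0 and NEFM at 1.44 to 8.92, whereas PAX2 was at 0.320 to 4.26 and LHX1 at 0.234 to 1.69. Markers of other cells were at or near 0, with PTPRC at up to 0.344, ALB at up to 0.0808, CD3E at up to 0.329, PECAM1 at up to 0.883 and CD34 at up to 0.960 FPKM, except COL1A1 at 3.23 to 4.16. Of the 6 heat shock genes looked at, DNAJB1, a co-chaperone of HSP70, was at 4.84 to 9.18 FPKM in the control libraries but 34.0 to 120.9 in the heat shock libraries, and the groups of HSPA1A and HSPA1B did not overlap either, whereas HSPH1, BAG3 and HSPB1 were lower in heat shock replicate 3 (6.66, 4.01 and 33.6) than in control replicates 1 and 3.

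As exon coverage, which is explained further on, divided by its common factor, the log2 fold changes of the 10 replication genes lay between -0.19 and 0.15. On that scale DNAJB1 and the near-identical HSP70 genes HSPA1B and HSPA1A, between which reads are split with uncertainty, lay above the controls in each heat shock library. Division by such a factor removes a change that most genes share. Without it, the changes on exon coverage ran from 0.61 to 0.998 for the members, with 0 called, against 3 higher and 2 lower of all 11833 genes tested (limma). Their median was then 0.84, that of all genes tested 0.55. Calls needed an adjusted p under 0.05 (limma on log2(value + 1), Benjamini-Hochberg over the genes tested, 13023 for the FPKM as deposited) and a change of more than 2-fold. In the FPKM as deposited, 0 of the 10 members were called, against 0.023% of all genes (3 of 13023, 2 of them higher and 1 of them lower). At an unadjusted p under 0.05, 0 members were higher, against 2.07% of all genes (270), and 0 lower, against 1.61% (210). The groups did not overlap for 0 members, whereas 3.71% of all genes were higher in each heat shock library than in each control and 2.26% were lower. The median log2 fold change of the members was 0.39, that of all genes tested 0.45. Without heat shock replicate 3, 14 genes were called higher and 2 lower of 12874 tested. At an unadjusted p under 0.05 (limma), 5216 of these 12874 genes were then higher and 1094 lower. Of the 10 members 3 were higher at that threshold, MCM4, RRM1 and RRM2, with adjusted p from 0.0799 to 0.0839. The members thus did not stand out from all genes in this setting.

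**Figure D1:**
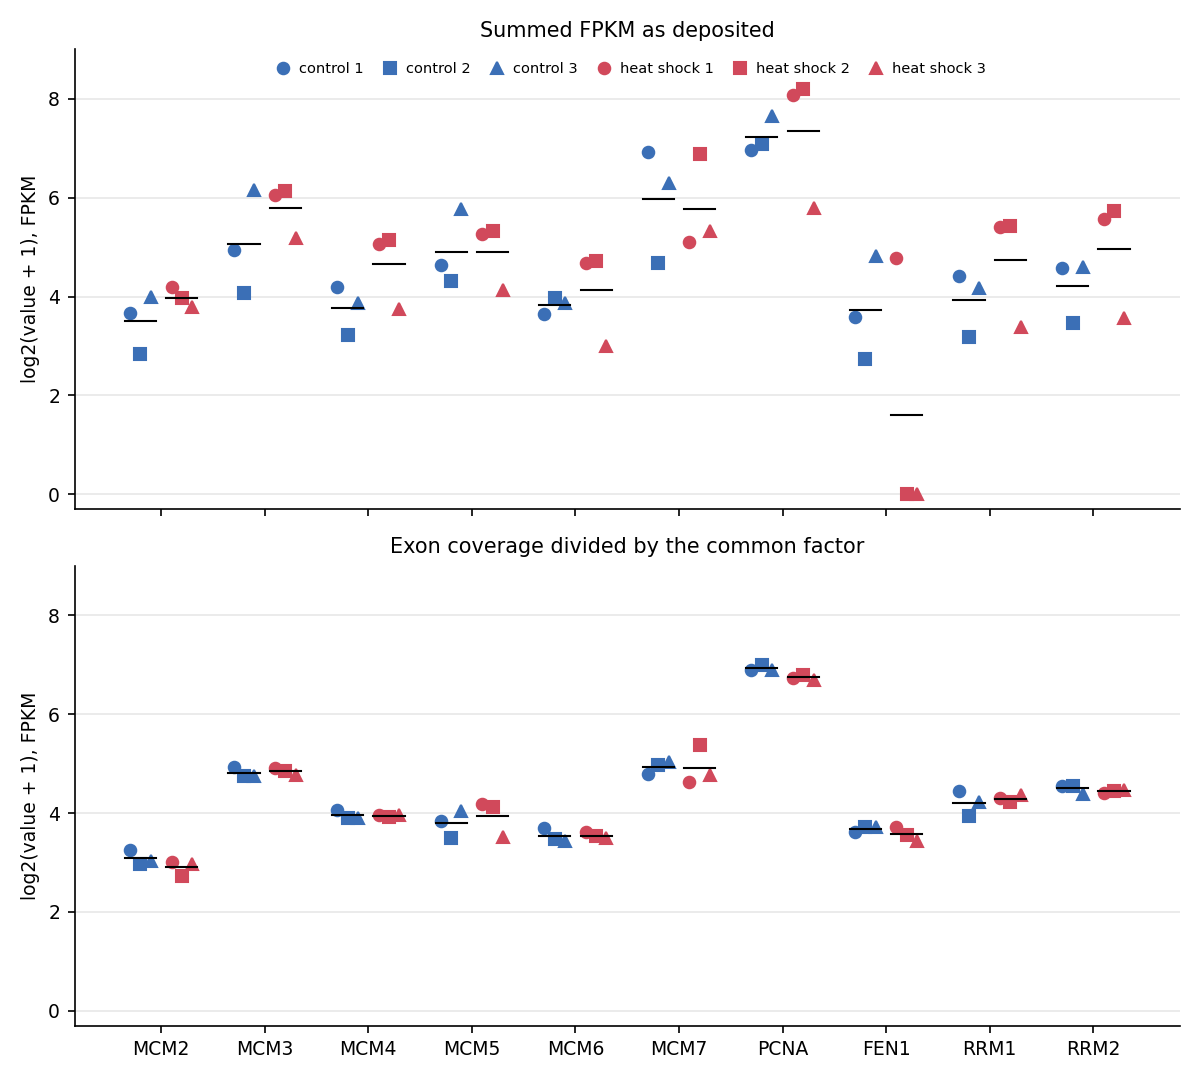
Values of the 10 genes in each library on a log2(value + 1) axis, as summed FPKM (upper panel) and as exon coverage divided by the common factor (lower panel), with controls in blue, heat shock in red, replicates 1, 2 and 3 as circles, squares and triangles, and bars at the group means of the log2 values. The summed values of a gene with no library at 0 span 2.79-fold (MCM2) to 5.36-fold (PCNA), those in the lower panel 1.13-fold (RRM2) to 1.71-fold (MCM7), and FEN1 is at 0 in heat shock replicates 2 and 3 of the upper panel.

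The way a gene was assembled also differed between libraries. In heat shock replicates 1 and 2 annotated transcripts held a median of 100% of the signal of a member, taken as FPKM times length. In these libraries 3 and 4 further assembled transcripts were listed. The lowest shares were 59.4% for PCNA in replicate 1 and 19.3% for MCM7 in replicate 2, where FEN1 had no transcript of its own. In control replicates 2 and 3 and heat shock replicate 3 the median was 21.5%, 33.5% and 26.3%, and 14, 11 and 13 assembled transcripts took the rest. Control replicate 1 lay between, at 86.8% with 8 assembled transcripts. A sum of FPKM adds a short piece to a long transcript as if each were a whole gene, so a gene in pieces gets a higher sum. A further measure, chosen after seeing the data and named exon coverage, weighted the FPKM of each transcript on the strand of the gene, or without a strand, by the share of the annotated exon bases of the gene that it covered, and it was divided by its own common factor over 821 genes.

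On this measure the SD of log2 values among the 6 libraries was 0.065 for MCM4, 0.070 for RRM2, 0.083 for MCM3, 0.096 for MCM6, 0.111 for PCNA and 0.114 for FEN1, but 0.170 for MCM2, 0.171 for RRM1, 0.264 for MCM7 and 0.301 for MCM5. The median SD was 0.133 over the 1905 genes averaging 10 or more on this measure, with 6 members below it and 4 above. Of the 10 members, 0 were called, as were 0% of the 12932 genes tested. At an unadjusted p under 0.05, 0 members were higher, against 0.518% of all genes, and 1 was lower (PCNA), against 1.89%. Groups did not overlap for PCNA, which was lower, against 4.96% of all genes in that direction, and 1.31% of all genes were higher without overlap, 0 members among them. Log2 fold changes ran from -0.19 for MCM2 to 0.15 for MCM5, with a median of -0.012, that of all genes tested being -0.16. The common factor was set on the 821 genes above 10 in every library, whereas the median of all genes tested also takes in genes at lower levels. The 2 medians are thus not of genes at like levels. Without heat shock replicate 3 an unadjusted p under 0.05 (limma) was reached by 63 higher and 3441 lower of the 11993 genes then tested, 0 members among them.

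**Figure D2:**
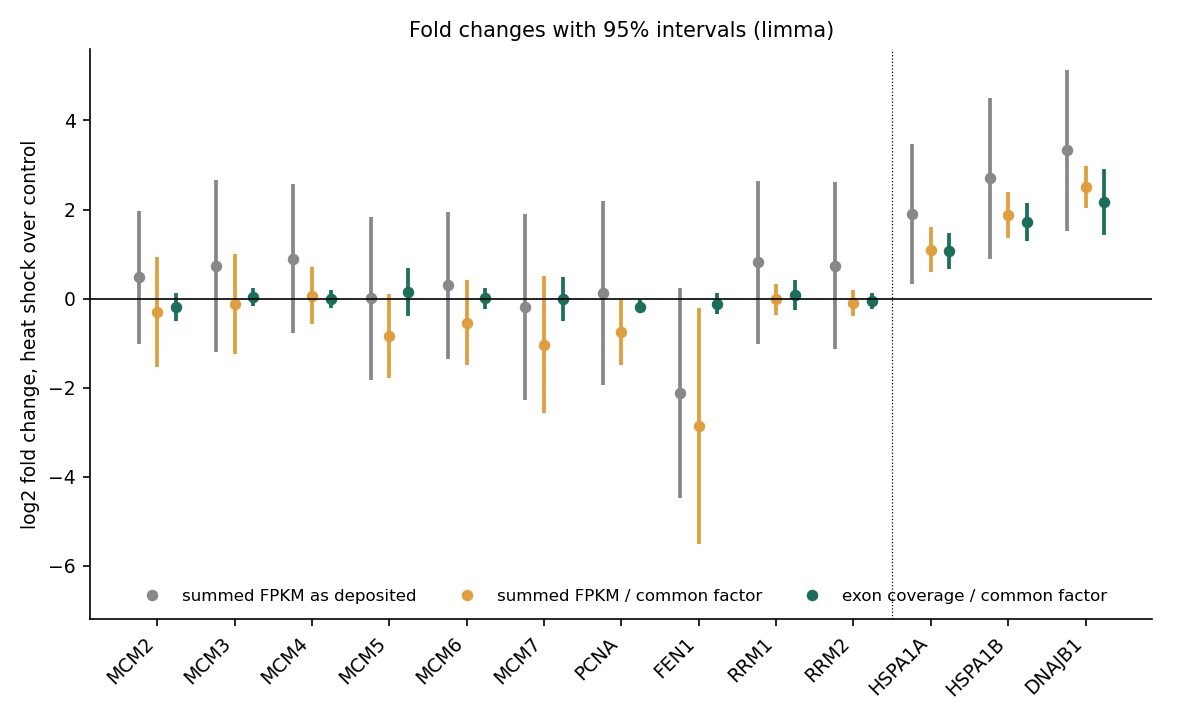
Log2 fold changes, heat shock over control, with 95% intervals from limma for the 10 genes and, right of the dotted line, 3 heat shock genes, on 3 scales: summed FPKM as deposited (grey), summed FPKM divided by the common factor (orange) and exon coverage divided by the common factor (green). The grey intervals of the 10 genes all hold 0, those in green lie within -0.51 and 0.69, and the intervals of the heat shock genes lie above 0 on each scale.

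Among the helicase genes, MCM3 (chr6:52128812-52149679 of hg19, minus strand) encodes the neighbour of MCM5 in the ring. The summed FPKM of control replicates 1, 2 and 3 was 29.9, 15.9 and 70.0, that of heat shock replicates 1, 2 and 3 was 65.3, 69.2 and 35.3, and values are given in this order of replicates from here on. The highest value was thus in a control, and the groups overlapped (log2 fold change 0.73, SE 0.90, adjusted p = 0.711, limma). Control replicate 3 owed 50.3 FPKM to a piece of 1122 nucleotides in 5 exons at the 3′ end, and heat shock replicate 3 owed 24.9 FPKM to one of 1028 nucleotides, whereas heat shock replicates 1 and 2 held whole transcripts at 54.4 and 57.4 FPKM. As exon coverage over the common factor, MCM3 was at 29.5, 25.8 and 25.9 in the controls, against 29.0, 27.8 and 26.2 after heat shock. These 6 values spanned 1.14-fold, and the log2 fold change was 0.034 with a 95% interval from -0.16 to 0.23.

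MCM7 (chr7:99690404-99699427, minus strand), whose introns host microRNAs of the miR-106b cluster, had the widest range of the 6 subunits, 4.90-fold. It summed to 119.7, 24.4 and 78.0 FPKM in the controls, against 33.5, 117.1 and 39.3 after heat shock (log2 fold change -0.19, SE 0.97, adjusted p = 0.915, limma). Each group held 1 value above 110 and 1 below 35. The high control value came from a piece of 1110 nucleotides at the 3′ end with 105.6 FPKM, and the high heat shock value from an assembled transcript of 2915 nucleotides and 15 exons with 94.0 FPKM. Exon coverage over the common factor gave 26.6, 30.3 and 31.7 in the controls, against 23.6, 40.2 and 26.1 after heat shock, so heat shock replicates 1 and 2 were the lowest and the highest of all libraries (log2 fold change -0.015, 95% interval -0.51 to 0.48). In heat shock replicate 1 the sum held only the annotated transcript, at 33.5 FPKM. Over the last of 20 bins of the exons, at the 3′ end, the transcripts listed there reached 212.5 FPKM together. What lay above 33.5 FPKM entered exon coverage but not the sum.

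MCM4 (chr8:48872763-48890719, plus strand) and MCM6 (chr2:136597196-136634047, minus strand) form, with MCM7, the core of the helicase that unwinds DNA on its own. MCM4 was at 17.3, 8.39 and 13.6 summed FPKM in the controls, against 32.5, 34.3 and 12.5 after heat shock. Heat shock replicates 1 and 2 were above all controls and replicate 3 below 2 of them (log2 fold change 0.89, SE 0.77, adjusted p = 0.710, limma). Exon coverage over the common factor for MCM4 was 15.8, 13.9 and 14.0 against 14.5, 14.0 and 14.7, with a log2 fold change of -0.0096 (95% interval -0.20 to 0.18). MCM6, at 11.6, 14.7 and 13.7 summed FPKM in the controls, against 24.5, 25.3 and 7.01 after heat shock, had its highest and its lowest values in the heat shock group (log2 fold change 0.29, SE 0.76, adjusted p = 0.833, limma). Its exon coverage over the common factor was 12.0, 10.2 and 9.81 against 11.2, 10.6 and 10.2, and the log2 fold change was 0.0061 (95% interval -0.23 to 0.25).

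MCM2 and MCM5 flank the gate through which the ring opens to take in DNA. MCM2 (chr3:127317200-127341278, plus strand) had the lowest mean of the ring in both groups, at 11.8, 6.17 and 14.8 summed FPKM in the controls, against 17.2, 14.7 and 12.8 after heat shock (log2 fold change 0.48, SE 0.69, adjusted p = 0.731, limma). Exon coverage over the common factor turned the order of the means for MCM2, with 8.57, 6.88 and 7.22 in the controls, against 7.01, 5.61 and 6.88 after heat shock (log2 fold change -0.19, 95% interval -0.50 to 0.12). MCM5 (chr22:35796116-35820495, plus strand) summed to 23.7, 19.0 and 53.6 FPKM in the controls, against 37.4, 39.3 and 16.5 after heat shock, where control replicate 3 held a piece of 940 nucleotides with 51.4 FPKM (log2 fold change 0.0022, SE 0.84, adjusted p = 0.999, limma). As exon coverage over the common factor MCM5 was at 13.4, 10.3 and 15.5 against 17.1, 16.5 and 10.5. The low values were in control replicate 2 and heat shock replicate 3, both of the libraries with many transcripts without a strand, and the log2 fold change was 0.15 (95% interval -0.40 to 0.69). Between these libraries and control replicate 1 MCM5 differed by -0.15 (heat shock minus control, log2) and among the other 3 libraries by 0.11.

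Since the 6 subunits work as a ring with 1 copy of each, their shares in the summed level of MCM2 to MCM7 were compared, which do not depend on how libraries are scaled. On summed FPKM the share of MCM4 was 8.09%, 9.47% and 5.57% in the controls, against 15.5%, 11.5% and 10.2% after heat shock, and these were the only shares of the 6 whose groups did not overlap (exact permutation test, two-sided, p = 0.1, the smallest that 3 against 3 allows, adjusted p = 0.64 over 8 quantities). The groups overlapped on exon coverage, where MCM4 took 14.9%, 14.3% and 13.4% in the controls, against 14.2%, 12.2% and 15.5% after heat shock (exact permutation test, p = 0.9). On exon coverage the shares in controls were 28.9% ± 3.3 (SD, n = 3) for MCM7, 26.4% ± 1.5 for MCM3, 14.2% ± 0.74 for MCM4, 12.7% ± 2.1 for MCM5, 10.4% ± 0.93 for MCM6 and 7.37% ± 0.64 for MCM2. After heat shock they were 28.6% ± 6.1, 26.8% ± 2.2, 14.0% ± 1.7, 14.0% ± 2.8, 10.3% ± 0.96 and 6.34% ± 1.3 in the same order, with raw p from 0.4 to 1 in exact permutation tests and adjusted p of 1.

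**Figure D3:**
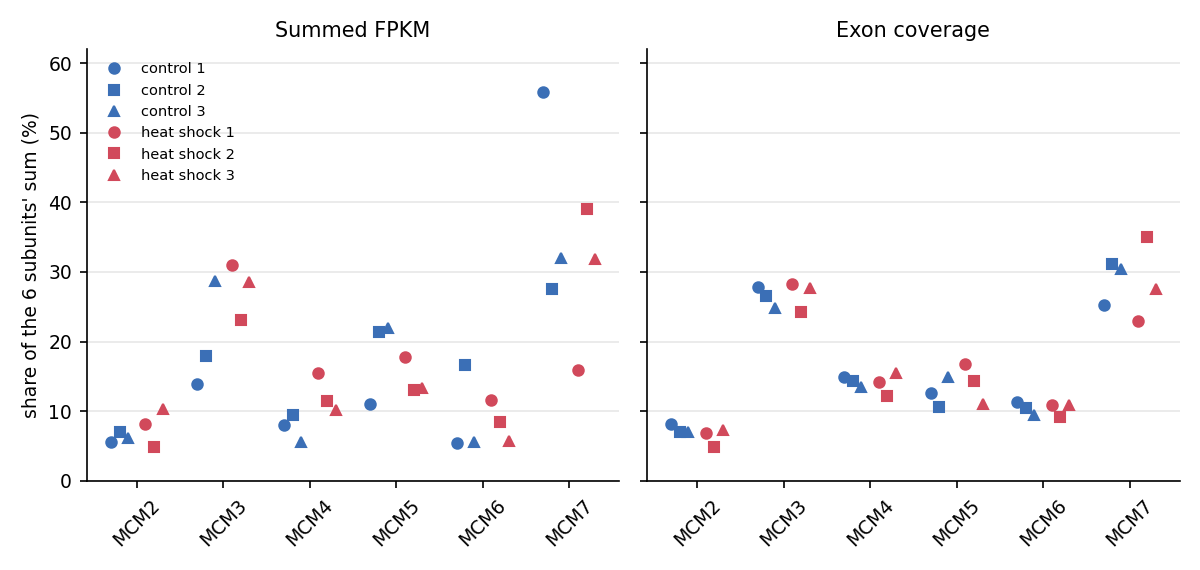
Share of each helicase subunit in the sum of MCM2 to MCM7 within a library, in percent, on summed FPKM (left) and on exon coverage (right), with colours for groups and symbols for replicates. On the left the share of MCM7 runs from 15.9% to 55.9%, on the right from 23.0% to 35.1%, and on the right the controls and heat shock libraries overlap for each subunit.

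At the fork, PCNA was the most abundant of the 10 genes. The gene (chr20:5095599-5107268, minus strand) overlaps the antisense gene PCNA-AS1, and its strand is as Cufflinks assigned it. Its summed FPKM was 124.4, 133.9 and 199.5 in the controls, against 267.5, 291.8 and 54.5 after heat shock, so the heat shock libraries were both the highest and the lowest (log2 fold change 0.12, SE 0.96, adjusted p = 0.945, limma). PCNA was a single whole transcript in heat shock replicate 3, while control replicate 2 owed 108.8 FPKM to a piece of 481 nucleotides. As exon coverage over the common factor the values were 117.5, 126.4 and 117.3 in the controls, against 105.7, 110.2 and 102.6 after heat shock, means of 120.4 ± 5.2 and 106.2 ± 3.8 (SD, n = 3). The groups of PCNA did not overlap, with a log2 fold change of -0.18, an SE of 0.057 and a 95% interval from -0.32 to -0.040, but over all genes the adjusted p was 0.857 (unadjusted p = 0.0197, limma). The median of all genes was -0.16, but it takes in genes at far lower levels than PCNA, while the common factor was set on genes above 10 in every library. The difference was -0.25 among the libraries with many transcripts without a strand and -0.12 among the other 3, and the unadjusted p of limma was 0.0584 without control replicate 2, 0.0522 without heat shock replicate 1 and 0.0848 without heat shock replicate 3.

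FEN1 (chr11:61560109-61564714, plus strand) was the member with the lowest fold change as deposited and the one listed at 0 in some libraries. It was at 10.96, 5.70 and 27.4 summed FPKM in the controls, at 26.6 in heat shock replicate 1, and was listed at 0 in heat shock replicates 2 and 3 (log2 fold change -2.12, SE 1.09, adjusted p = 0.710, limma). In those libraries its exons lay in transcripts that Cufflinks had grouped with a neighbour: in heat shock replicate 2 one of 795 nucleotides and 2 exons with 82.2 FPKM, grouped with FADS2, a fatty acid desaturase gene, and in heat shock replicate 3 transcripts with 1.54 and 5.43 FPKM, grouped with MYRF. Transcripts shared by several genes entered no sum. With heat shock replicate 1 left out, the sum gave a call for FEN1 (log2 fold change -3.72, adjusted p = 0.0387, limma), which rests on the listing at 0. Exon coverage, which takes in the joined transcripts and in heat shock replicate 2 rests on that of 795 nucleotides, was 11.3, 12.1 and 12.1 over the common factor in the controls, against 12.2, 10.7 and 9.82 after heat shock, and the log2 fold change was -0.11 (SE 0.097, 95% interval -0.35 to 0.12, adjusted p = 0.857, limma). The log2 ratio of FEN1 to PCNA was -3.26, -3.16 and -3.17 in the controls, against -3.07, -3.31 and -3.14 after heat shock on exon coverage (exact permutation test, p = 0.8), a difference of 0.022, against one of -2.24 on summed FPKM (exact permutation test, p = 0.3). This ratio and that of RRM2 to RRM1 were taken on values with 1 added, on both measures.

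**Figure D4:**
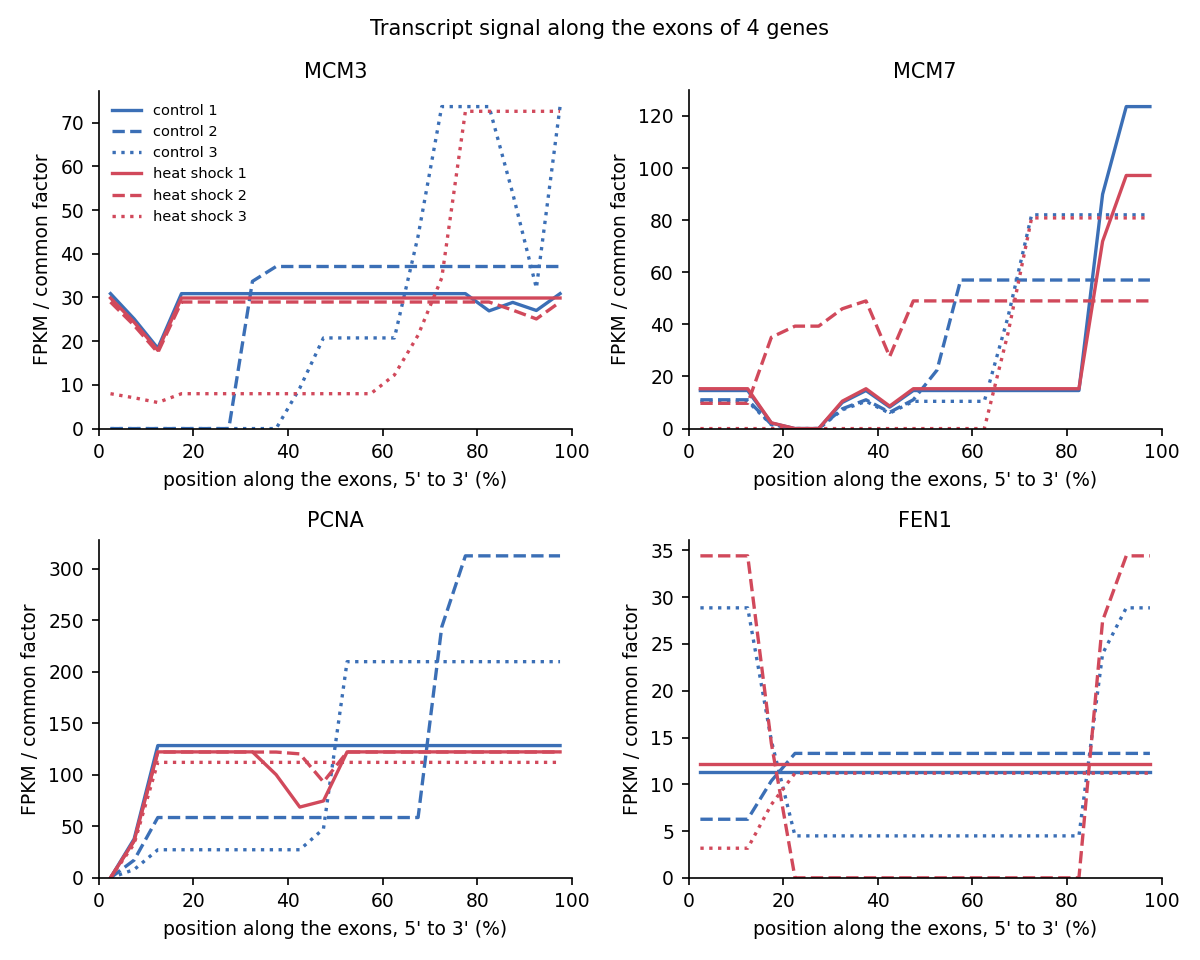
FPKM of the transcripts that cover each stretch of the annotated exons, divided by the common factor of exon coverage, along MCM3, MCM7, PCNA and FEN1 from the 5′ to the 3′ end in 20 bins, with controls in blue, heat shock in red and replicates 1, 2 and 3 as solid, dashed and dotted lines. Control replicate 3 and heat shock replicate 3 hold 80.8% and 78.6% of their MCM3 signal in the last of 3 equal parts of the exons, against 33.3% to 34.3% in control replicate 1 and heat shock replicates 1 and 2.

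Signal gathered at the 3′ end for some members in libraries of both groups. A signal even over all annotated exon bases would put 33.3% in the last of 3 equal parts. A whole transcript that lacks some of these bases gives another share with an even signal. For PCNA in heat shock replicate 3, a single annotated transcript of 1319 nucleotides on 1442 exon bases gave 36.4%. In MCM5 that part held 39.7%, 73.3% and 90.2% of the signal of the controls, against 33.3%, 33.3% and 67.9% after heat shock. For MCM4 the share was high in control replicate 2 (47.0%) and heat shock replicate 3 (58.6%) and between 34.1% and 37.8% in the other 4 libraries. PCNA was high in control replicates 2 and 3 (73.1% and 59.7%) and at 36.4% to 38.6% in the rest. RRM1 stood at 33.3% to 33.8% except in control replicate 2 (43.4%), and RRM2 at 34.9% to 35.1% except in control replicate 3 (40.9%). MCM7 was at 40.6% in heat shock replicate 2 and at 62.7% to 100% in the other libraries, and MCM2 at 25.3% to 34.8% throughout. Over 1633 genes with at least 1000 exon bases and a mean of at least 10 FPKM, the median share was 34.5%, 38.4% and 37.7% in the controls, against 34.8%, 34.9% and 36.7% after heat shock. Above that median lay 5, 7 and 7 of the 10 members in the controls and 3, 4 and 6 in the heat shock libraries. These counts are not of 3′ signal alone. RRM2, a single whole transcript in heat shock replicates 1 and 2, lay above the median there at 35.1%.

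Ribonucleotide reductase needs both of its subunits. RRM1 (chr11:4115924-4160106, plus strand) was at 20.3, 8.06 and 17.1 summed FPKM in the controls, against 41.5, 42.0 and 9.50 after heat shock (log2 fold change 0.82, SE 0.84, adjusted p = 0.710, limma). RRM2 (chr2:10262695-10271546, plus strand), the subunit whose level is known to limit the enzyme, was at 22.8, 10.1 and 23.2 in the controls, against 46.6, 52.4 and 10.8 after heat shock (log2 fold change 0.74, SE 0.87, adjusted p = 0.710, limma). In both genes heat shock replicates 1 and 2 were above all controls, and heat shock replicate 3 lay between control replicate 2 and the other controls. As exon coverage over the common factor RRM1 was at 20.8, 14.4 and 17.8 against 18.7, 17.6 and 19.6 (log2 fold change 0.083, 95% interval -0.25 to 0.41). RRM2 was at 22.4, 22.5 and 19.9 against 20.3, 20.9 and 21.1 (log2 fold change -0.055, 95% interval -0.23 to 0.12). The log2 ratio of RRM2 to RRM1 on summed FPKM was 0.16, 0.29 and 0.42 in the controls, against 0.16, 0.31 and 0.17 after heat shock, a difference of -0.076 (exact permutation test, two-sided, p = 0.7, adjusted p = 0.8). RRM2B, the subunit induced by p53 that serves outside S phase, was far lower, at 0.726, 0.917 and 1.00 in the controls, against 0.755, 0.744 and 0.770 after heat shock as exon coverage over the common factor.

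Ordered by exon coverage over the common factor in the controls, the levels were 120.4 ± 5.2 for PCNA, 29.5 ± 2.6 for MCM7, 27.0 ± 2.1 for MCM3, 21.6 ± 1.5 for RRM2, 17.7 ± 3.2 for RRM1, 14.5 ± 1.1 for MCM4, 13.0 ± 2.6 for MCM5, 11.8 ± 0.45 for FEN1, 10.6 ± 1.1 for MCM6 and 7.56 ± 0.90 for MCM2 (SD, n = 3, per exon length). After heat shock they were 106.2 ± 3.8, 30.0 ± 9.0, 27.7 ± 1.4, 20.7 ± 0.43, 18.6 ± 0.99, 14.4 ± 0.33, 14.7 ± 3.7, 10.9 ± 1.2, 10.7 ± 0.49 and 6.50 ± 0.77 in that order. The steps from PCNA to MCM7, from MCM3 to RRM2 and from MCM6 to MCM2 were wider than the sum of the SDs of the neighbours in both groups, and MCM7 with MCM3, MCM4 with MCM5 and FEN1 with MCM6 were neighbours within their spread. For DNAJB1 the same measure gave 7.32, 9.64 and 9.24 in the controls, against 34.7, 31.9 and 69.9 after heat shock, and for HSPA1B 10.5, 15.4 and 10.1 against 39.6, 38.0 and 47.2. The log2 fold changes of these were 2.17 (SE 0.31, adjusted p = 0.857) for DNAJB1 and 1.73 (SE 0.17, adjusted p = 0.246) for HSPA1B, so limma over all genes called neither, and HSPA1A was at 1.08 (SE 0.17, adjusted p = 0.857). HSPH1, BAG3 and HSPB1, the other heat shock genes looked at, had log2 fold changes of 0.22, 0.12 and 0.32 and groups that overlapped.

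RNA depleted of ribosomal RNA also holds transcripts that are not yet spliced, and signal between the exons was seen for 7 members. This signal is the FPKM times length of single-exon transcripts listed without a strand that touch no exon, and whether it came from unspliced RNA was not tested. Relative to the signal in the exons, MCM2 had 0.66, 0.92 and 0.32 in the controls, against 0, 0 and 1.04 after heat shock. MCM5 had 0.31, 0.94 and 0.084 in the controls, against 0.025, 0.057 and 0.62 after heat shock. For MCM2 and MCM5 high values lay in the 3 libraries with many transcripts without a strand, of both groups. The measure counts transcripts of that same kind, so this overlap is partly built in. RRM2 had its highest value, 0.14, in heat shock replicate 2, which is not among these libraries. MCM4, with a single such transcript in each library, was at 0.10, 0.063 and 0.11 against 0.080, 0.082 and 0.051. MCM6, PCNA and RRM1 had 0 in all libraries. Exact permutation tests gave p from 0.3 to 1 for the 7 genes (two-sided, adjusted p of 1). Over the 10 members together the signal between exons was 7.28%, 9.58% and 2.79% of that in the exons in the controls, against 2.72%, 3.26% and 7.75% after heat shock.

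The other 78 genes of replication, in 6 groups by role, were described in the same way. As deposited 77 were tested and 0 were called in either direction, against 0.023% of all genes (limma). At an unadjusted p under 0.05 there were 0, against 2.07% of all genes higher and 1.61% lower. Without overlap 2 were higher, against 3.71% of all genes, and the median log2 fold change was 0.59. Without heat shock replicate 3, 36 of them were higher at an unadjusted p under 0.05 (limma), against 5216 of the 12874 genes tested, and 0 were called. As exon coverage over the common factor 76 were tested and 0 were called, as were 0% of all genes. At an unadjusted p under 0.05, 1 was lower, against 1.89% of all genes, and 0 higher, against 0.518% (limma). Without overlap 4 were lower (GMNN, GINS3, RFC4 and E2F3), against 4.96% of all genes, and 2 higher (GINS2 and CDK2), against 1.31%. The median was -0.085, that of all genes tested -0.16. The medians by role on that measure were -0.085 for 12 origin licensing genes, -0.12 for 13 genes of origin firing, -0.096 for 32 genes of polymerases, clamp loader and fork, -0.074 for 6 genes of nucleotide supply, -0.14 for 5 genes of chromatin behind the fork and -0.0018 for 8 genes of S phase control. TYMS, thymidylate synthase, was listed at 0 in all 6 libraries and could not be tested. At its locus transcripts of 4.01 to 11.6 FPKM were listed on the opposite strand, under the antisense gene ENOSF1.

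**Figure D5:**
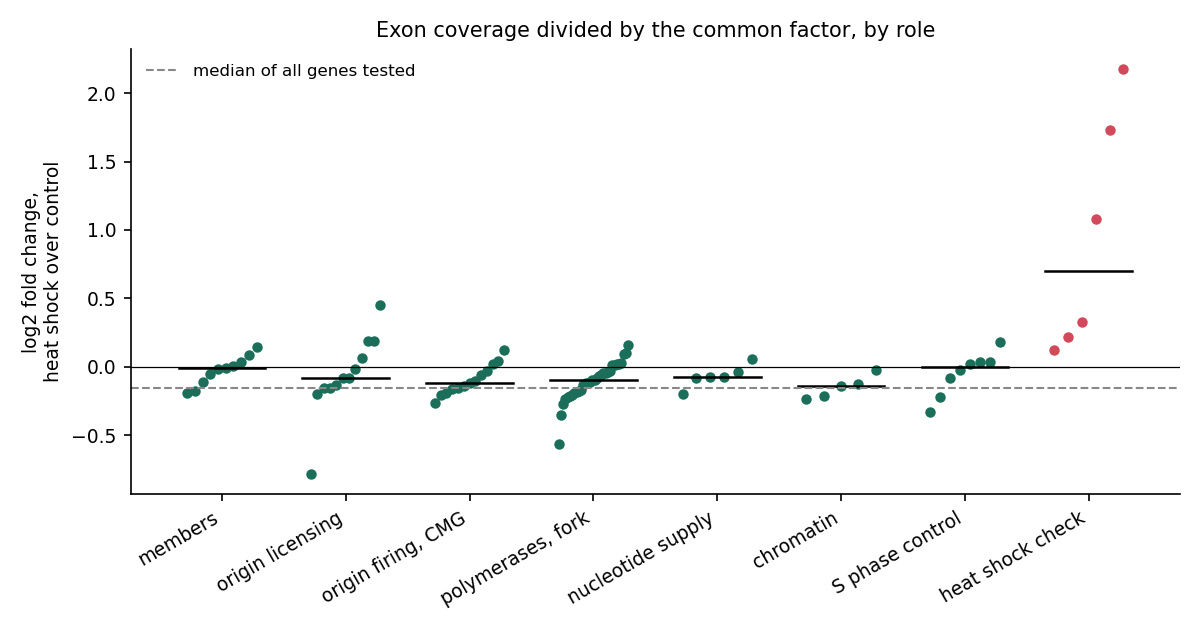
Log2 fold changes, heat shock over control, of exon coverage divided by the common factor, with 1 point for each gene tested, bars at the median of each group, and a dashed line at the median of all genes tested (-0.16). The 10 members lie between -0.19 and 0.15, the medians of the 6 other replication groups between -0.14 and -0.0018, and the heat shock genes reach 2.17.

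In each role the genes with the lowest and highest change after division of summed FPKM by the common factor were looked at. Of the licensing genes, ORC1, the largest subunit of the origin recognition complex, was listed at 0 in control replicate 1 and at 1.81 and 1.32 in the other controls, with 1.35, 1.07 and 2.39 after heat shock (exon coverage over the common factor). ORC4 was at 10.5, 53.7 and 12.6 against 6.83, 4.90 and 35.4, and was thus high in control replicate 2 and heat shock replicate 3. In origin firing, CDC45, which joins the helicase, was at 16.6, 15.6 and 16.6 against 16.3, 17.5 and 13.0, and GINS3 at 4.17, 4.91 and 4.46 against 4.05, 3.98 and 3.76, lower in each heat shock library.

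At the fork, RFC4, a subunit of the loader that opens PCNA, was at 20.3, 21.3 and 36.1 in the controls, against 17.4, 16.5 and 16.1 after heat shock. Its groups did not overlap, and it was the gene at an unadjusted p under 0.05 (log2 fold change -0.56, SE 0.22, unadjusted p = 0.0411, adjusted p = 0.857, limma), with control replicate 3 the farthest from the rest. LIG1, which seals Okazaki fragments, had the highest change as deposited (log2 fold change 1.58, SE 0.77, adjusted p = 0.710, limma) and was at 3.40, 3.95 and 2.88 against 2.65, 2.74 and 3.36 as exon coverage over the common factor. TK1, thymidine kinase, was at 22.3, 21.8 and 18.9 against 15.5, 20.3 and 24.8, and SAMHD1, which breaks down deoxynucleotides, at 1.88, 2.13 and 1.01 against 1.23, 0.731 and 2.12. Among chromatin genes, CHAF1A, of the histone chaperone CAF-1, was at 9.28, 7.37 and 6.63 against 6.76, 5.30 and 7.65, and UHRF1, which recruits DNMT1 to new DNA, at 6.45, 6.86 and 5.83 against 5.26, 5.55 and 8.20. Of the E2F genes, E2F2 was at 2.67, 3.70 and 2.78 against 2.41, 2.12 and 4.86, and E2F3 at 1.38, 2.09 and 1.92 against 1.16, 1.19 and 1.27, lower in each heat shock library. Relatives of the ring that are not part of it overlapped between the groups, with MCM8 at 4.10 ± 0.71 and 3.63 ± 0.45, MCM9 at 1.16 ± 0.29 and 0.931 ± 0.13 and MCM10, a scaffold of the fork, at 7.19 ± 0.27 and 7.01 ± 0.61 in controls and after heat shock (SD, n = 3).

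The authors' merged table gives 1 pooled FPKM for each group, with no value for single libraries and so no error. The pooled value was higher in the heat shock column at each of the 10 tested loci, with 7.91 in the control and 31.3 in the heat shock column for MCM2, 64.5 and 288.2 for MCM3, 17.2 and 78.3 for MCM4, 19.5 and 85.0 for MCM5, 11 and 49.0 for MCM6, 48.9 and 213.3 for MCM7, 282.7 and 1242 for PCNA, 19.4 and 84.2 for RRM1, 22.6 and 96.4 for RRM2, and 27.7 and 169.1 for FEN1. Each of these heat shock values was above the highest summed FPKM of the gene in any single library, which was 291.8 for PCNA and 27.4 for FEN1. The pooled values are thus not averages of the library sums, and the reason was not tested. Ratios of these columns ran from 3.95 for MCM2 to 4.55 for MCM4, with 6.10 for FEN1. The median ratio over the 4819 tested loci with a pooled control value of at least 5 was 4.29 (5th to 95th percentile 0.911 to 5.42). FEN1 was thus above the 95th percentile and the other tested loci of the members within this range. The merged locus of FEN1 (chr11:61556601-61564718) starts before the annotated gene, and that of MCM7 (chr7:99690313-99723128) reaches past it. Their pooled values need not be of these genes alone.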

How the data were processed

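Per the labels, the authors used FastQC 0.10.1 and Trimmomatic 0.3.0 on the reads, mapped the trimmed reads to hg19 by tophat2 (3 mismatches allowed) and built the transcripts of each library in Cufflinks 2.0.2. The authors deposited 6 assemblies, in which each transcript carries an FPKM with an interval, and a cuffdiff table with 1 pooled FPKM for each group. The fold changes and p-values of that table were not used. Of 40803 annotated transcripts, 96.7% were matched to a symbol by accession and 549 by gene name, and 791 kept the accession.

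The FPKM of a gene was summed over its annotated transcripts and the assembled transcripts grouped with it alone. Those averaging 1 FPKM or more entered limma 3.58.1 (R 4.3.3, lmFit, eBayes with a trend) as log2(FPKM + 1), a scale that understates changes of low genes, 3 heat shock against 3 control libraries, without a block. Single quantities were compared by exact permutation tests, two-sided, whose smallest p is 0.1 (Python 3.11.15, scipy 1.17.1). Exon overlaps used bedtools 2.31.1. The fit was tested on simulated data.

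The genes, lists and tests were chosen with earlier results of these data known. Named were the members, the markers, the heat shock genes and, in each role, the genes with the highest and lowest change after division by the common factor, with MCM8, MCM9, MCM10 and RRM2B as relatives of members, which were chosen after their values were seen. The other replication genes whose groups did not overlap on exon coverage over the common factor were also named. Alternatives were other pseudocounts, scalings and minimum FPKM, no trend, a replicate block, a term for the libraries rich in transcripts without a strand, annotated transcripts alone, each library left out in turn and, added after seeing the data, exon coverage. The deposited values hold no counts, so no counting interval is given for a value.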

Additional observations from a re-analysis of the deposited data

How the results depend on the processing

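Exon coverage was chosen after seeing the data, and the other settings with earlier results of these data known. Called genes of all genes tested numbered 2 higher and 1 lower as deposited, 0 and 0 after the common factor, after exon coverage with the common factor or without a minimum FPKM, 1 and 0 with size factors over genes above 0 throughout, without a trend or for annotated transcripts alone, 4 and 0 at a minimum mean of 10 FPKM, and 3 and 2 with exon coverage alone (limma). Where 0 were called, an unadjusted p under 0.05 was reached by 94 higher and 340 lower genes after the common factor, 67 and 244 with exon coverage and the common factor, and 295 and 539 without a minimum. Leaving out a library gave 0 to 14 higher and 0 to 5 lower. Members called numbered 0 under each of these settings except 1 (FEN1) without heat shock replicate 1, so from 0 to 1 over the libraries left out. The median log2 fold change of the members was 0.39 as deposited, -0.42 after the common factor and 1.24 for annotated transcripts alone, and it ran from -0.68 to 0.88 over the libraries left out, with or without scaling, that of the other replication genes from -0.22 to 1.18.

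Directions of single members depended on the scale. The log2 fold change after the common factor was -0.30 for MCM2, -0.12 for MCM3, -0.84 for MCM5, -0.55 for MCM6, -0.75 for PCNA, -0.019 for RRM1 and -0.10 for RRM2. Rescaled to TPM it was -0.21 for MCM2, -0.74 for MCM5, -0.44 for MCM6 and -0.63 for PCNA, with size factors over genes above 0 throughout -0.43 for MCM5, -0.13 for MCM6 and -0.32 for PCNA, and with a term for the libraries rich in transcripts without a strand -0.41 for MCM5 and -0.37 for PCNA. Exon coverage with the common factor gave -0.19 for MCM2, -0.0096 for MCM4, -0.18 for PCNA and -0.055 for RRM2, and exon coverage alone 0.86 for MCM7 and 0.73 for FEN1. Over the libraries left out, as deposited or scaled, the change ran from -0.88 to 0.72 for MCM2, from -0.53 to 1.28 for MCM3, from -0.18 to 1.34 for MCM4, from -1.16 to 0.43 for MCM5, from -0.81 to 0.86 for MCM6, from -1.53 to 0.29 for MCM7, from -1.06 to 0.90 for PCNA, from -0.072 to 1.49 for RRM1 and from -0.12 to 1.44 for RRM2. The cause of these turns was not tested. In percentage points, the difference in share of MCM2 was -3.63 for annotated transcripts alone and -1.03 on exon coverage, that of MCM4 -3.99 and -0.22, and that of MCM5 7.80 and 1.35. On annotated transcripts alone the difference was also 21.0 for MCM3, listed at 0 in control replicates 2 and 3, and -20.9 for MCM7, against 7.36 and -9.57 on the sums, with no overlap for MCM2, MCM5 and MCM7 (exact permutation tests, p = 0.1), while the difference of MCM6 ran from -2.54 to 3.07 over the libraries left out. The log2 ratio of FEN1 to PCNA differed by 0.022 on exon coverage.

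The labels number the replicates of both groups from 1 to 3, but do not say whether the numbers pair the samples. Deviations from the group means of same-numbered libraries correlated at 0.026, -0.33 and -0.38. Control replicate 2 correlated best with heat shock replicate 3 (0.44), and both are rich in transcripts without a strand. That split between libraries can set these correlations, so they cannot decide whether samples were paired. A replicate block gave 12 higher and 5 lower genes as deposited and 0 and 0 after the common factor, with 0 members called in each, and with exon coverage, the common factor and the block 0 were called (94 higher and 222 lower, and 63 and 116, at an unadjusted p under 0.05).

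Depth is known only in relative terms, and the deposited values do not show reads shared by near-identical genes.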
